A study of Mus musculus with 36 samples.

Results

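The genes described here encode 7 S100 calcium-binding proteins of the mouse: S100a8, S100a9, S100a4, S100a6, S100a10, S100a11 and S100a1. They were taken from the 19938 genes that the arrays measure with a probe set of 1 gene symbol, with the highest probe set used where a gene had more than one. Levels are log2 intensities after RMA normalisation, so a difference of 1 stands for a doubling. The median of the whole table, 4.623, serves as a mark of low signal, and 12244 genes above it in at least 4 arrays were tested. All 7 S100 genes were among them. S100a9 passed through only 9 arrays above that level, S100a8 through 33, and the others were above it in all 36.

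The study sorted immature cells from wild-type C57BL/6 mice and asked what they become in the airspace of the lung. In 4 groups the arrays held alveolar macrophages recovered by bronchoalveolar lavage 6 weeks after cells had been placed in the airways of newborn Csf2rb-/- mice, which lack a chain of the receptor for GM-CSF and so lack normal alveolar macrophages of their own. The transferred cells were bone marrow monocytes, fetal liver monocytes, yolk sac macrophages or alveolar macrophages, and the recovered cells are called bone marrow-derived, fetal liver-derived, yolk sac-derived and alveolar macrophage-derived. Alveolar macrophages taken straight from wild-type mice formed a further pair of groups, one from adults of 6 to 12 weeks, the source of the transferred alveolar macrophages, and one from mice of 6 weeks, matched in age to the recipients. The last 3 groups were the untransferred precursors: yolk sac macrophages of E12.5 embryos, fetal liver monocytes of E15.5 embryos and bone marrow monocytes of adults of 6 to 12 weeks. Donor cells of every origin carried both CD45.1 and CD45.2, a pair of congenic marks by which they were sorted again from the recipient. Each of the 9 groups had 4 arrays, labelled as biological replicates; the labels do not say whether each came from 1 animal or from a pool.

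S100 proteins are small proteins, most of which bind calcium through a pair of EF-hand loops, and they usually act as dimers. S100A8 and S100A9 pair with each other to form calprotectin, an abundant protein of the cytosol of neutrophils and classical monocytes that binds zinc and manganese and, once released, acts on TLR4 and RAGE. S100A4 and S100A6 bind cytoskeletal proteins and annexins, S100A10 and S100A11 form tetramers with annexin A2 and annexin A1, and S100A1 is best known from heart and skeletal muscle, where it acts on calcium handling.

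The 7 genes lie on chromosome 3. In RefSeq's order of protein-coding genes S100a1, S100a4, S100a6, S100a8 and S100a9 follow one another in 1 cluster, with 0 protein-coding genes between S100a8 and S100a9, and S100a11 and S100a10 are neighbours of each other further along, 56 protein-coding genes past S100a9. The 250 bases before the start of S100a8, S100a9, S100a4 and S100a6 are shown because these genes differed most between the groups and 2 of them, S100a8 and S100a9, are direct neighbours with different levels in the macrophages. They are from RefSeq (GRCm38.p6), written 5′ to 3′ on the strand of the gene. Capitals mark the motif letters found by search.
S100a8, chr3:90668821-90669070, plus strand: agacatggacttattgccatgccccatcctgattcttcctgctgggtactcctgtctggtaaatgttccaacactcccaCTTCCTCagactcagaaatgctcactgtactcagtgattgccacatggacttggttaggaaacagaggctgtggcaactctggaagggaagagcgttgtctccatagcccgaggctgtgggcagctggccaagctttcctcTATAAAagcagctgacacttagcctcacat
S100a9, chr3:90695722-90695971, minus strand: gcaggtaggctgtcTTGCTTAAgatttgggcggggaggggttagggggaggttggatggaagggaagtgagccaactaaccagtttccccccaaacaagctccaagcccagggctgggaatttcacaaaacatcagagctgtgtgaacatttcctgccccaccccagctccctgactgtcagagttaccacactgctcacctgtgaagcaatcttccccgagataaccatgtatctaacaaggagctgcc
S100a4, chr3:90603520-90603769, plus strand: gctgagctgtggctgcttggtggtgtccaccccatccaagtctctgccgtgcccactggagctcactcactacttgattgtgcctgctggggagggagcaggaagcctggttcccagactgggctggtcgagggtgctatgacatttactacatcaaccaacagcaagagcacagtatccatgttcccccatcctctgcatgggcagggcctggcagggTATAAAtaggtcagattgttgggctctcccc
S100a6, chr3:90612644-90612893, plus strand: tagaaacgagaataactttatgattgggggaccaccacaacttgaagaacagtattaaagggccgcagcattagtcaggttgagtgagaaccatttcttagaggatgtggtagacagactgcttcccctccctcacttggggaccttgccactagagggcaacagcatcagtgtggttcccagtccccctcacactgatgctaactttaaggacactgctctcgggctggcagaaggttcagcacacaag

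Both strands of 300 bases around each start, 250 before and 50 after, were searched for 6 short motifs. The TATA box letters TATAAA occur in 13.6% of 32851 RefSeq mouse promoters, the C/EBP letters TTGCNNAA in 10.8%, the PU.1 letters GAGGAAG in 13.6%, the AP-1 letters TGANTCA in 7.81%, the STAT letters TTCNNNGAA in 8.3% and the PPAR direct repeat, a pair of AGGTCA 1 base apart, in 0.0396%. S100a8 holds TATAAA beginning 30 bases before its start and the PU.1 letters, read on the other strand, beginning 171 bases before it. S100a9 holds the C/EBP letters beginning 236 bases before its start, and TATAAA begins at base 1 after it, outside the stretch shown. S100a4 holds TATAAA beginning 31 bases before its start and the PU.1 letters 19 bases after it, again on the other strand. S100a11 holds the AP-1 letters at 136 and 38 bases before its start. None of the 6 motifs was found in these windows of S100a6 and S100a1, and 6 of the 7 genes matched the promoter table, S100a10 being the exception.

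The arrays of each group resembled each other, with a lowest correlation within a group of 0.957 to 0.98, and array medians ran from 4.544 to 4.732. Marker genes went with the labels but do not measure purity. In every array of the 6 alveolar macrophage groups, 14 of 14 measured alveolar macrophage genes were above the table median. In every array of fetal liver and bone marrow monocytes, 15 of 15 classical monocyte genes were so. By group mean, 9 of those 15 were also above it in each alveolar macrophage group and in yolk sac macrophages. Of the 14 alveolar macrophage genes, 7 were above it in fetal liver monocytes and 8 in each other precursor. Of 15 tissue and fetal macrophage genes, 14 were above it in yolk sac macrophages and 4 to 8 in the other groups. Of 16 neutrophil genes, 11 were above it in fetal liver and 12 in bone marrow monocytes. In bulk samples such as these, fewer cells of a type and less RNA per cell cannot be told apart.

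S100a8 and S100a9, the calprotectin pair, were both very high in monocytes, and only S100a8 remained so in alveolar macrophages. S100a8 was far above low signal in all 24 arrays of alveolar macrophages, whatever the origin of the cells, while S100a9 was under the table median in 23 of those 24. In yolk sac macrophages both were low, and S100a8 came up after transfer without S100a9.

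**Figure D1:**
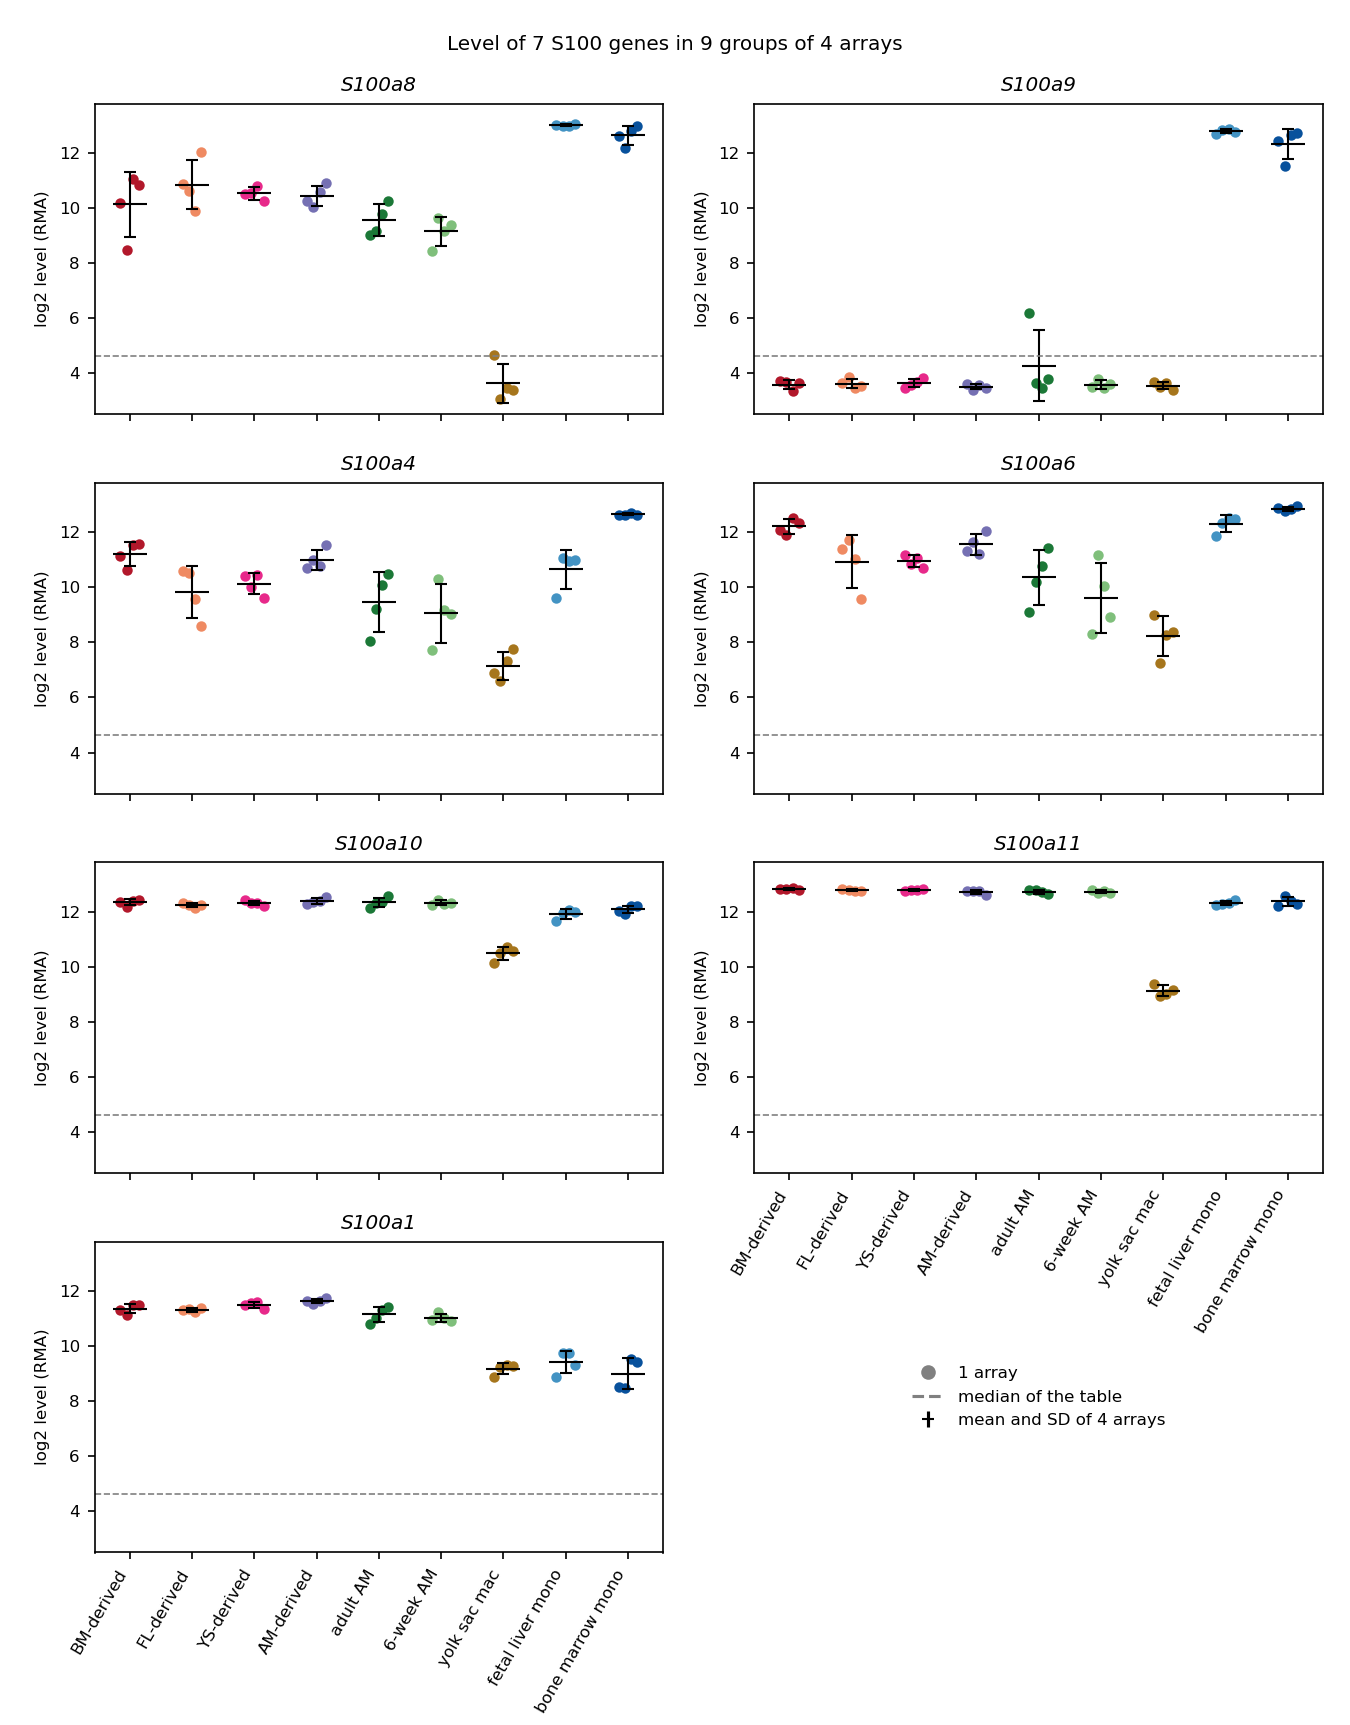
Log2 level of each of the 7 S100 genes in the 36 arrays (vertical axes, RMA), by group along the horizontal axes; points are arrays, bars the mean and SD of 4 arrays, and the dashed line the median of the table at 4.623. S100a8 averages 9.15 to 10.86 in the 6 alveolar macrophage groups, where S100a9 averages 3.51 to 4.27, and yolk sac macrophages are the lowest group for S100a4, S100a6, S100a10 and S100a11.

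Bone marrow-derived macrophages had S100a8 at 10.17, 8.46, 11.06 and 10.85, against 12.61, 12.17, 12.81 and 12.98 in bone marrow monocytes. Fetal liver-derived macrophages had 10.86, 10.61, 9.91 and 12.04, against 13.02, 12.99, 12.98 and 13.04 in fetal liver monocytes. In both pairs every derived array lay below every monocyte array. Over all genes tested, the arrays of the 2 groups did not overlap for 33.4% of genes in the bone marrow transfer, 35% in the fetal liver transfer and 41% in the yolk sac transfer. For S100a8 the derived arrays were spread more widely. Their SD was 1.18 and 0.89 for bone marrow- and fetal liver-derived cells, against 0.35 and 0.03 for their monocytes. Those monocytes averaged 12.64 and 13.01, near the top of the scale. The part of this in their narrow spread and in the size of the falls was not tested. S100a8 fell by 2.51 ± 0.41 on the log2 scale in bone marrow-derived macrophages (SE, n = 4 per group, limma adjusted p = 7.76e-06), a 5.68-fold difference. It fell by 2.15 ± 0.41 in fetal liver-derived macrophages (limma adjusted p = 6.65e-05), a 4.45-fold difference.

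Yolk sac-derived macrophages had S100a8 at 10.52, 10.54, 10.81 and 10.26, against 4.67, 3.06, 3.44 and 3.37 in yolk sac macrophages. The groups were far apart, and 3 of the 4 yolk sac arrays were under the table median. S100a8 rose by 6.90 ± 0.41 (limma adjusted p = 8.96e-16), at least 60.2-fold when the yolk sac mean is set at the table median. Alveolar macrophage-derived cells had 10.24, 10.06, 10.57 and 10.90, against 9.03, 9.17, 9.78 and 10.27 in the adult alveolar macrophages that were transferred. These groups overlapped, and the difference of 0.88 ± 0.41 was not called (limma adjusted p = 0.555).

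Ranked by mean, S100a8 was highest in fetal liver monocytes and bone marrow monocytes. Their difference of 0.37 ± 0.41, with the spread shared over all groups, was not called (limma adjusted p = 0.625). The fetal liver-derived, yolk sac-derived, alveolar macrophage-derived, bone marrow-derived, adult and 6-week alveolar macrophages followed in that order, and no neighbouring pair among these 6 groups was called. The step from bone marrow monocytes to fetal liver-derived macrophages and the step from 6-week alveolar macrophages to yolk sac macrophages were both called, and the arrays did not overlap at either.

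S100a9 showed none of this gradation. It was at 3.70, 3.66, 3.34 and 3.65 in bone marrow-derived macrophages, against 12.43, 11.53, 12.64 and 12.71 in bone marrow monocytes. It was at 3.63, 3.85, 3.47 and 3.52 in fetal liver-derived macrophages, against 12.70, 12.83, 12.86 and 12.78 in fetal liver monocytes. All 8 derived arrays were at low signal and all 8 monocyte arrays near the top of the scale. S100a9 was at least 209-fold lower in bone marrow-derived macrophages (limma adjusted p = 1.55e-21) and at least 288-fold lower in fetal liver-derived macrophages (limma adjusted p = 3.76e-22), with the derived means of 3.59 and 3.62 set at the table median. These are bounds, since levels under that median are at low signal.

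In yolk sac-derived macrophages S100a9 was at 3.47, 3.56, 3.67 and 3.82, against 3.67, 3.51, 3.64 and 3.38 in yolk sac macrophages. Both groups were at low signal, and the difference of 0.08 ± 0.32 was not called (limma adjusted p = 0.868). Alveolar macrophage-derived cells had 3.62, 3.38, 3.58 and 3.47, against 6.19, 3.64, 3.46 and 3.79 in adult alveolar macrophages, and 6-week alveolar macrophages had 3.48, 3.80, 3.44 and 3.61. One adult array, replicate 1, stood out at 6.19 and was the only alveolar macrophage array above the table median.

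Marker genes of neutrophils were measured in that array as a list of 16. It was the highest of the 4 adult arrays for 8 of them, the lowest for 1 and in between for 7, and replicate 2 was the highest for 5. Ngp, neutrophilic granule protein, stood furthest apart, at 5.42 in replicate 1 and 3.28 to 3.60 in the other adult arrays. Camp, the cathelicidin of neutrophil granules, was at 5.19 against 4.36 to 4.77, and Mpo, myeloperoxidase, at 4.76 against 4.10 to 4.23. Of other granule genes, Mmp8 and Mmp9 were also highest in replicate 1, at 8.164 against 7.872 to 8.160 and at 3.95 against 3.76 to 3.82. Some lay within the range of the other arrays: Elane, neutrophil elastase, was at 4.5 against 4.35 to 4.58 and Prtn3 at 4.37 against 4.21 to 4.53. Lcn2 was at 3.82 against 3.81 to 4.26 and Ltf at 3.19 against 3.07 to 3.23, and Ctsg, cathepsin G, at 3.22 was the lowest of the 4. Mmp9, Elane, Prtn3, Lcn2, Ltf and Ctsg were under the table median in all 4 adult arrays, so their levels carry little information. Over the 16 genes the mean level of replicate 1 was 4.78, and 4.43 to 4.59 in the other adult arrays. Ly6g, a defining marker of neutrophils, was at 3.16 in it and 2.75 to 2.93 in the others, under the table median in all 4. It was at low signal in all 9 groups, with means of 2.76 to 3.19. Its level here therefore cannot show whether neutrophils were present. S100a8 was at 9.03 in the same array, the lowest of its group. Whether other cells contributed to its S100a9 level was not tested.

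The same neutrophil list was measured in every group. Its mean level per array was 4.5 to 4.61 in bone marrow-derived, 4.43 to 4.76 in fetal liver-derived, 4.44 to 4.78 in yolk sac-derived and 4.57 to 4.78 in alveolar macrophage-derived cells, 4.43 to 4.78 in adult and 4.42 to 4.60 in 6-week alveolar macrophages, 4.04 to 4.14 in yolk sac macrophages, 6.93 to 7.52 in fetal liver monocytes and 6.44 to 7.70 in bone marrow monocytes. Between 4 and 7 of its 16 genes were above the table median in each alveolar macrophage array, and 10 to 13 in each monocyte array. The part of other cells in the S100a8 level was not tested.

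Different probe sets respond differently to the same amount of RNA, so the change over transfer of the 2 genes is set side by side here and not the height of one against the other. S100a8 was 5.68-fold lower in bone marrow-derived macrophages than in their monocytes, and S100a9 at least 209-fold lower. In fetal liver-derived macrophages S100a8 was 4.45-fold lower, and S100a9 at least 288-fold lower. In yolk sac-derived macrophages S100a8 was at least 60.2-fold higher, while S100a9 was at low signal before and after transfer and gives no fold. These differences are given with no test of one gene against the other, since the pair was singled out after its levels had been seen.

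**Figure D2:**
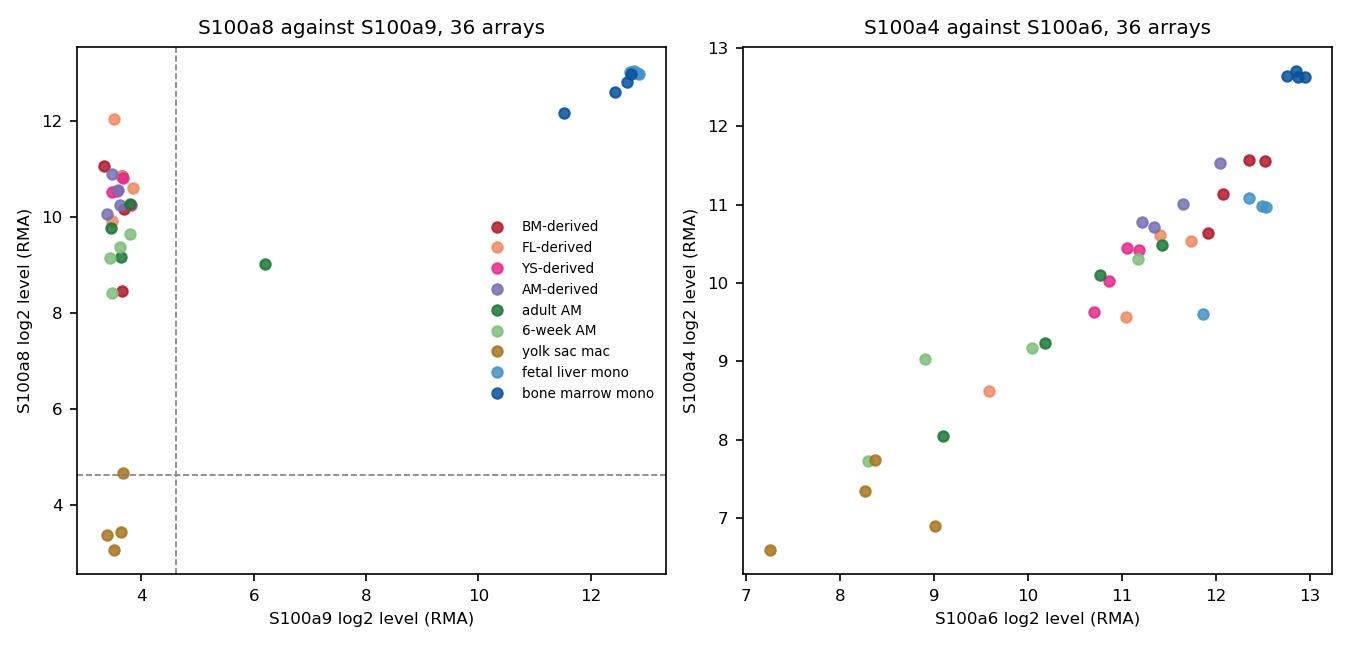
S100a8 (vertical axis) against S100a9 (horizontal axis) on the left and S100a4 against S100a6 on the right, as log2 levels of all 36 arrays coloured by group; dashed lines mark the table median of 4.623. Monocytes sit at the top right for S100a8 and S100a9, and 23 of 24 alveolar macrophage arrays stand in a column of low S100a9 with S100a8 at 8.43 to 12.04.

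S100a4 and S100a6, which bind non-muscle myosin and annexins and are associated with cell movement and growth, were highest in bone marrow monocytes and lowest in yolk sac macrophages, and they varied widely among alveolar macrophages. Both rose in yolk sac-derived macrophages, and each passed the test for a fall in 1 of the 2 monocyte origins.

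S100a4 was at 11.13, 10.64, 11.56 and 11.57 in bone marrow-derived macrophages, against 12.63, 12.65, 12.71 and 12.63 in bone marrow monocytes. It fell by 1.43 ± 0.46 (limma adjusted p = 0.0133), a 2.69-fold difference with no overlap, and without bone marrow-derived replicate 2 the adjusted p was 0.052. Fetal liver-derived macrophages had 10.61, 10.54, 9.57 and 8.61, against 9.60, 11.08, 10.97 and 10.98 in fetal liver monocytes, overlapping groups with a difference of -0.82 ± 0.46 (limma adjusted p = 0.163). Yolk sac-derived macrophages had 10.42, 10.03, 10.44 and 9.63, against 6.89, 6.59, 7.34 and 7.74 in yolk sac macrophages. There S100a4 rose by 2.99 ± 0.46 (limma adjusted p = 1.64e-06), a 7.95-fold difference, and every derived array was above every yolk sac array.

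S100a6 was at 12.07, 11.92, 12.53 and 12.36 in bone marrow-derived macrophages, against 12.88, 12.76, 12.85 and 12.95 in bone marrow monocytes. All 4 derived arrays were lower, but the difference of -0.64 ± 0.46 was not called (limma adjusted p = 0.284) with the spread shared over all groups; a fit of these 2 groups alone gave the same difference with an adjusted p of 0.006. Fetal liver-derived macrophages had S100a6 at 11.40, 11.73, 11.04 and 9.58, against 11.87, 12.35, 12.54 and 12.49 in fetal liver monocytes. It fell by 1.37 ± 0.46 (limma adjusted p = 0.0159), and without fetal liver-derived replicate 4, the lowest array, the difference was -0.92 with an adjusted p of 0.117. Yolk sac-derived macrophages had 11.18, 10.86, 11.06 and 10.70, against 9.01, 7.25, 8.27 and 8.37 in yolk sac macrophages, a rise of 2.73 ± 0.46 (limma adjusted p = 7.37e-06).

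Among the untransferred precursors, fetal liver monocytes had less S100a4 than bone marrow monocytes, by -2.0 ± 0.46 (limma adjusted p = 0.00151), a 3.99-fold difference without overlap. This was the 1 S100 gene of 7 called between the monocytes, where 19.5% of all genes tested were called. S100a6 differed there by -0.55 ± 0.46, with the groups apart but no call (limma adjusted p = 0.473; 0.045 in a fit of the 2 groups alone). In all, the arrays of the monocytes did not overlap for 2 of the 7, where 18.8% of all genes tested did not overlap. Fetal liver monocyte replicate 1, at 9.60, was the lowest monocyte array for S100a4.

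S100a4 and S100a6 ranked the arrays of the untransferred alveolar macrophages alike, and they were not the only S100 genes to do so. Alveolar macrophages of 6 weeks had S100a4 at 7.72, 10.31, 9.17 and 9.02 and S100a6 at 8.29, 11.17, 10.05 and 8.91, with replicate 1 lowest and replicate 2 highest for both. Adult alveolar macrophages had S100a4 at 8.05, 9.23, 10.10 and 10.48 and S100a6 at 9.09, 10.18, 10.77 and 11.43, in the same order of arrays. S100a8 ran in that order too, at 9.03, 9.17, 9.78 and 10.27. Over the 8 untransferred alveolar macrophage arrays, which come from 2 groups, Pearson r with S100a4 was 0.94 for S100a6, 0.92 for S100a8, 0.90 for S100a1, 0.88 for S100a10, -0.79 for S100a11 and -0.40 for S100a9, given as a description. In the other 28 arrays, taken as deviations from group means, r with S100a4 was 0.78 for S100a6 and 0.57 for S100a10. There it was 0.38 for S100a1, 0.11 for S100a11, 0.07 for S100a8 and 0.03 for S100a9. Fetal liver-derived replicate 4 was the lowest of its group for both S100a4 and S100a6 and the highest for S100a8, at 12.04.

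S100a10 and S100a11, the annexin partners, were near the top of the scale in every group except yolk sac macrophages, the highest value of the whole table being 13.864. S100a10 averaged 12.24 to 12.40 in the 6 alveolar macrophage groups and S100a11 12.71 to 12.83. At such levels a probe set has little room to rise. The same holds for S100a8, S100a9 and S100a6 in both monocytes and S100a4 in bone marrow monocytes, with means of 12.31 to 13.01. How far this held back the differences was not tested.

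S100a11 was at 12.77, 12.79, 12.77 and 12.82 in yolk sac-derived macrophages, against 9.39, 8.94, 9.0 and 9.16 in yolk sac macrophages. It rose by 3.67 ± 0.09 (limma adjusted p = 1.74e-26), a 12.7-fold difference. In bone marrow-derived macrophages it was at 12.81, 12.83, 12.88 and 12.80, against 12.22, 12.59, 12.40 and 12.29 in bone marrow monocytes, a rise of 0.46 ± 0.09 (limma adjusted p = 0.000109). In fetal liver-derived macrophages it was at 12.82, 12.79, 12.75 and 12.76, against 12.23, 12.29, 12.32 and 12.43 in fetal liver monocytes, a rise of 0.46 ± 0.09 (limma adjusted p = 8.79e-05). None of the 3 pairs overlapped. A second probe set of S100a11, not used, had the same pattern, with a mean of 8.84 in yolk sac macrophages; a pseudogene of S100a11 exists in the mouse, so the level of this gene is less certain.

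S100a10 was at 12.41, 12.31, 12.32 and 12.21 in yolk sac-derived macrophages, against 10.13, 10.51, 10.72 and 10.58 in yolk sac macrophages, a rise of 1.83 ± 0.11 (limma adjusted p = 1.6e-15). Fetal liver-derived macrophages had 12.31, 12.26, 12.13 and 12.25, against 11.65, 11.95, 12.07 and 12.00 in fetal liver monocytes. That rise of 0.32 ± 0.11 (limma adjusted p = 0.0214) was small, and it was not called without fetal liver monocyte replicate 1 (adjusted p 0.117), without fetal liver-derived replicate 1 (0.058) or in a fit of the 2 groups alone (0.073). Bone marrow-derived macrophages averaged 12.34 ± 0.11, against 12.09 ± 0.13 in bone marrow monocytes (SD, n = 4 each), and the difference of 0.26 ± 0.11 was not called (limma adjusted p = 0.0742), though without bone marrow-derived replicate 2 it was (0.048).

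The annexins and other binding partners of S100 proteins were followed as a list of 11 genes. In yolk sac-derived against yolk sac macrophages 8 were higher and 2 lower, where 19.6% of all genes tested were called higher and 23.2% lower, with a median difference of 1.67 beside -0.002 over all genes. Anxa1, the partner of S100A11, averaged 10.45 in yolk sac-derived macrophages and 5.39 in yolk sac macrophages, a rise of 5.06 (limma adjusted p = 4.86e-29). Anxa2, the partner of S100A10, averaged 11.53 and 8.55 in the same groups, a rise of 2.99 (limma adjusted p = 2.74e-23). Ezr, which encodes the membrane-cytoskeleton linker ezrin, rose by 2.71, Anxa11 by 1.98 and Anxa5 by 1.67. In bone marrow-derived against bone marrow monocytes 6 of the 11 were higher and 1 lower, where 20.3% of all genes were called higher and 16.1% lower, with a median of 0.48 beside -0.017. There Ezr rose by 2.33, Myh9, a heavy chain of non-muscle myosin, by 1.5, Anxa5 by 0.69, Anxa2 by 0.65 and Anxa1 by 0.48. In fetal liver-derived against fetal liver monocytes 7 were higher and 2 lower, where 20.4% were called higher and 18% lower, with a median of 0.82 beside -0.016. There Ezr rose by 2.25, Anxa5 by 1.57, Nucb1, a calcium-binding protein of the Golgi, by 0.97 and Anxa2 by 0.90, and Anxa6 fell by 0.91. At most 5 genes per origin are named, so an origin not named for a gene can differ too. Myh9 averaged 9.69 in yolk sac-derived against 7.73 in yolk sac macrophages. It averaged 9.74 in fetal liver-derived macrophages against 8.46 in their monocytes.

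S100a1 had another pattern: it was higher after transfer in all 3 precursor origins, and its mean was 11.03 to 11.64 in the 6 alveolar macrophage groups, against 8.99 to 9.42 in the 3 precursors. It was at 11.33, 11.13, 11.48 and 11.49 in bone marrow-derived macrophages, against 8.52, 8.49, 9.54 and 9.42 in bone marrow monocytes, a rise of 2.37 ± 0.19 (limma adjusted p = 1.76e-12). In fetal liver-derived macrophages S100a1 was at 11.32, 11.37, 11.22 and 11.37, against 8.89, 9.74, 9.73 and 9.32 in fetal liver monocytes, a rise of 1.90 ± 0.19 (limma adjusted p = 3.22e-10). Yolk sac-derived macrophages had 11.48, 11.58, 11.59 and 11.36, against 8.87, 9.25, 9.32 and 9.28 in yolk sac macrophages, a rise of 2.32 ± 0.19 (limma adjusted p = 1.97e-12). These are differences of 5.16, 3.72 and 5.01-fold without overlap. No pair of precursors was called for S100a1, the closest being fetal liver against bone marrow monocytes with a difference of 0.43 ± 0.19 (limma adjusted p = 0.11). That difference was called, with fetal liver monocytes higher, without bone marrow monocyte replicate 3 (limma adjusted p = 0.018) or 4 (0.035), or without fetal liver monocyte replicate 1 (0.023).

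**Figure D3:**
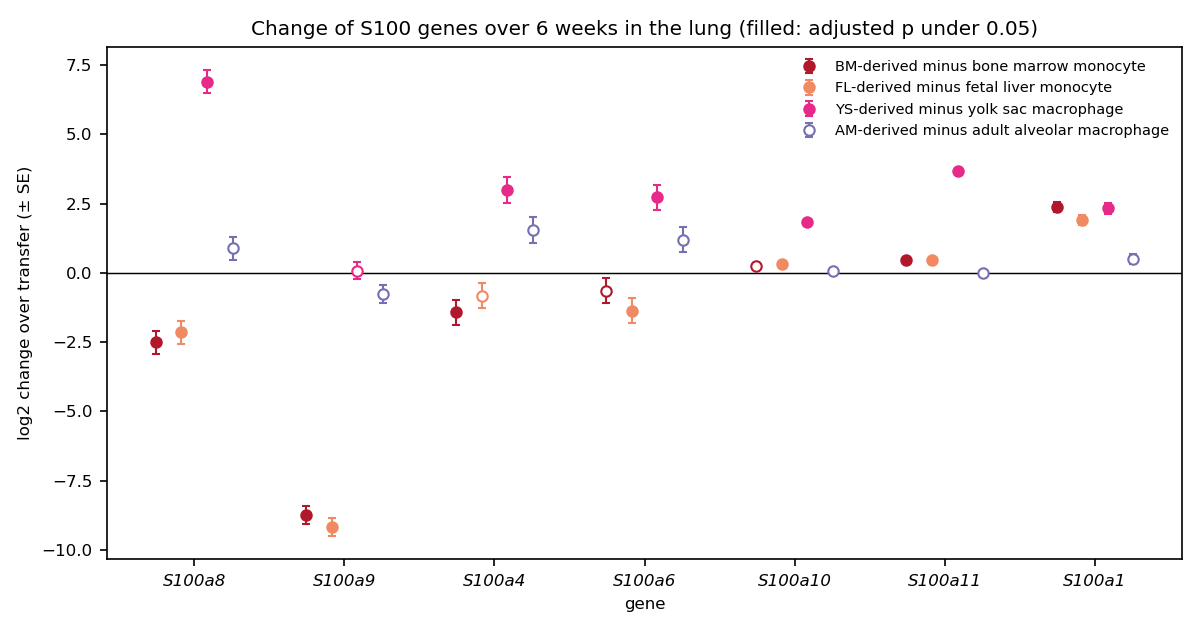
Log2 change of each gene over transfer (vertical axis), derived minus precursor, with its SE, for the 4 origins; filled points passed the test at an adjusted p under 0.05. Points of the yolk sac origin are at or above 0 for every gene, those of the monocyte origins lie below 0 for S100a8, S100a9, S100a4 and S100a6, and S100a1 is called higher in the 3 precursor origins. The points of S100a9, and that of S100a8 for the yolk sac origin, rest on group means under the table median.

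Counted over the 7 genes, 6 rose and 0 fell in yolk sac-derived macrophages, where 19.6% of all genes tested were called higher and 23.2% lower. In fetal liver-derived macrophages 3 rose (S100a10, S100a11, S100a1) and 3 fell (S100a8, S100a9, S100a6), where 20.4% of all genes were called higher and 18% lower. In bone marrow-derived macrophages 2 rose (S100a11, S100a1) and 3 fell (S100a8, S100a9, S100a4), where 20.3% were called higher and 16.1% lower. The median difference of the 7 was 2.73, -0.82 and -0.64 in these origins, beside -0.002, -0.016 and -0.017 over all genes tested. Alveolar macrophages put through the same transfer had 0 of 7 called by limma against the adult cells, where 0.702% of all genes were called. At an unadjusted p under 0.05, which 8.5% of all genes tested passed, there were 5, namely S100a8, S100a4, S100a6 and S100a1, higher after transfer, and S100a9, which was lower and differed by -0.12 without adult replicate 1.

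The transfer changes of 2 origins at a time were also set against each other, as the difference of 2 changes. For yolk sac against bone marrow origin 6 of the 7 were called, where 30.6% of all genes tested were called, and for yolk sac against fetal liver origin 6 of 7, where 22.9% were. Both comparisons share the yolk sac origin. They also hold the gap between the untransferred precursors, which is given below from the same arrays. In both, the 6 were all but S100a1, and each changed more positively in the yolk sac origin. The difference of changes for S100a8 was 9.40 ± 0.59 against bone marrow (limma adjusted p = 7.77e-15) and 9.05 ± 0.59 against fetal liver (limma adjusted p = 2.54e-14), sizes that rest on a yolk sac macrophage mean under the table median. For S100a1 it was -0.04 ± 0.27 (limma adjusted p = 0.925) and 0.43 ± 0.27 (limma adjusted p = 0.271). Between the fetal liver and bone marrow origins 0 of 7 were called by limma, where 9.94% of all genes were, and 0 passed an unadjusted p under 0.05, where 22.2% of all genes did.

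The origins entered the lung with very different S100 levels. Yolk sac macrophages had 6 of the 7 genes lower than bone marrow monocytes, where 18.1% of all genes tested were called lower, and the same 6 lower than fetal liver monocytes, where 14.5% were; S100a1 was the exception. S100a4 was 45.6-fold lower than in bone marrow monocytes (difference -5.51 ± 0.46, limma adjusted p = 4.47e-12) and S100a6 24.9-fold lower (-4.64 ± 0.46, limma adjusted p = 2.66e-10). S100a11 was 9.52-fold lower and S100a10 3.03-fold lower. Against fetal liver monocytes the same genes were 11.4-fold, 17-fold, 9.18-fold and 2.70-fold lower. Of 7 measured genes of red blood cells 5 were tested, and 4 were called higher in yolk sac macrophages against each monocyte. Of all genes tested, 24.1% were called higher against bone marrow and 18.6% against fetal liver monocytes. The mean level of the list per array was 6.02 to 6.61 in yolk sac macrophages. It was 4.03 to 4.31 in fetal liver monocytes and 4.17 to 4.27 in bone marrow monocytes. The part of red blood cells in the S100 differences was not tested.

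After 6 weeks in the lung no S100 gene was called between cells of different origin. In the 6 comparisons between derived groups 0 of the 7 genes were called by limma, where the share of all genes tested that were called was 0.417% for fetal liver- against bone marrow-derived, 0.833% for yolk sac- against bone marrow-derived and 0.27% for yolk sac- against fetal liver-derived macrophages, and 0.425%, 0.335% and 0.588% for bone marrow-, fetal liver- and yolk sac-derived against alveolar macrophage-derived cells. S100a4 and S100a6 had the largest of these differences: bone marrow-derived macrophages averaged 11.22 ± 0.44 and 12.22 ± 0.28, higher in all 4 arrays than fetal liver-derived macrophages at 9.83 ± 0.94 and 10.94 ± 0.95 and yolk sac-derived macrophages at 10.13 ± 0.38 and 10.95 ± 0.21 (SD, n = 4 each). Of all genes tested, 3.93% did not overlap against fetal liver-derived and 5.39% against yolk sac-derived macrophages. Yolk sac-derived and alveolar macrophage-derived arrays did not overlap for S100a4, S100a6 and S100a11, where 3.87% of all genes did not. Against the same cells, S100a4 and S100a1 did not overlap for fetal liver-derived macrophages (4.84% of all genes). S100a11 and S100a1 did not for bone marrow-derived macrophages (4.95%). Fetal liver-derived minus bone marrow-derived was -1.39 ± 0.46 for S100a4 (limma adjusted p = 0.387) and -1.28 ± 0.46 for S100a6 (limma adjusted p = 0.527). Yolk sac-derived minus bone marrow-derived was -1.09 ± 0.46 for S100a4 (limma adjusted p = 0.548) and -1.27 ± 0.46 for S100a6 (limma adjusted p = 0.377; 0.003 in a fit of these 2 groups alone). At an unadjusted p under 0.05 these 2 genes passed in both comparisons, where 5.85% of all genes did for fetal liver- against bone marrow-derived and 7.96% for yolk sac- against bone marrow-derived macrophages. Between fetal liver-derived and alveolar macrophage-derived cells 1 of 7 passed (S100a4), where 8.17% of all genes did. In the remaining 3 comparisons 0 of 7 passed, where 6.28%, 8.99% and 6.22% of all genes did for yolk sac- against fetal liver-derived macrophages and for bone marrow- and yolk sac-derived against alveolar macrophage-derived cells.

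Against alveolar macrophages of untreated 6-week mice, S100a8, S100a4, S100a6 and S100a1 had higher means in all 4 derived groups, with few calls. The comparisons share the 6-week arrays. S100a4 in bone marrow-derived macrophages was higher by 2.17 ± 0.46 (limma adjusted p = 0.00574), a 4.5-fold difference, and S100a6 by 2.61 ± 0.46 (limma adjusted p = 0.000612), a 6.12-fold difference; these 2 of 7 were called where 1.31% of all genes tested were. In alveolar macrophage-derived cells S100a4 was higher by 1.95 ± 0.46 (limma adjusted p = 0.0195) and S100a6 by 1.96 ± 0.46 (limma adjusted p = 0.019), again 2 of 7, where 1.07% were called. In fetal liver-derived macrophages S100a8 alone was called, where 1.05% were, higher by 1.70 ± 0.41 (limma adjusted p = 0.0275). In yolk sac-derived macrophages 0 of 7 were called by limma, where 1.72% were, and 4 passed an unadjusted p under 0.05, where 8.59% of all genes did: S100a8 by 1.38 ± 0.41 (limma adjusted p = 0.097), S100a4, S100a6 and S100a1. The same 4 passed it in alveolar macrophage-derived cells, where 9.09% of all genes did. In bone marrow-derived macrophages 3 passed (S100a8, S100a4, S100a6), where 8.13% did, and in fetal liver-derived macrophages 2 (S100a8, S100a6), where 6.89% did.

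**Figure D4:**
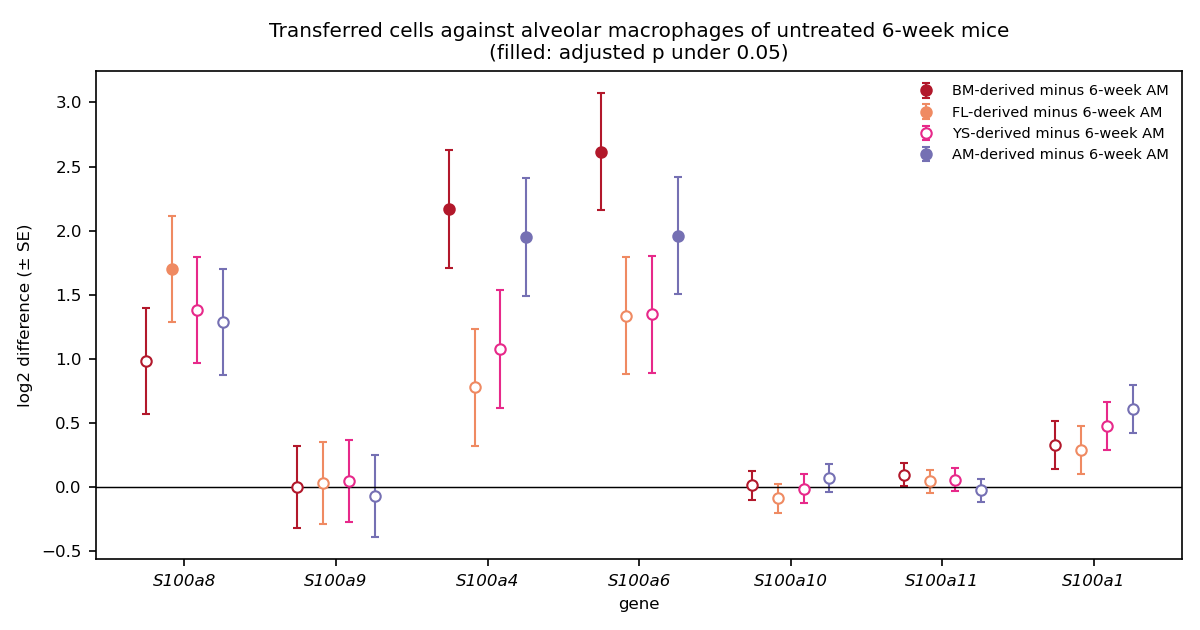
Log2 difference of each gene (vertical axis) between the 4 derived groups and alveolar macrophages of untreated 6-week mice, with its SE; filled points passed the test at an adjusted p under 0.05. The 5 filled points are S100a8 in fetal liver-derived cells and S100a4 and S100a6 in bone marrow- and alveolar macrophage-derived cells, and S100a9, S100a10 and S100a11 lie near 0.

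These calls rest on few arrays. Without 6-week replicate 1, the lowest array for S100a8, S100a4 and S100a6, S100a4 in bone marrow-derived macrophages was no longer called (limma adjusted p = 0.061). S100a6 in bone marrow-derived macrophages was still called with each of the 8 arrays left out in turn. In alveolar macrophage-derived cells the call for S100a4 was lost without derived replicate 2 (0.055) or 4 (0.098) or 6-week replicate 1 (0.184), 3 (0.051) or 4 (0.059). The call for S100a6 there was lost without derived replicate 2 (0.058) or 4 (0.091) or 6-week replicate 1 (0.177) or 4 (0.109). A fit of these 2 groups alone called neither S100a4 (0.067) nor S100a6 (0.139), and called S100a8 (0.049) and S100a1 (0.043) instead. S100a8 in fetal liver-derived macrophages lost its call without derived replicate 1 (0.075), 2 (0.053) or 4 (0.203) or 6-week replicate 1 (0.187), 3 (0.073) or 4 (0.056), and in a fit of the 2 groups alone (0.138). Other genes gained a call: S100a6 in fetal liver-derived macrophages without derived replicate 4 (0.042) or 6-week replicate 2 (0.025), S100a6 in yolk sac-derived macrophages without 6-week replicate 2 (0.014), S100a8 in bone marrow-derived macrophages without derived replicate 2 (0.021), and S100a8 in yolk sac-derived macrophages in a fit of the 2 groups alone (0.011). S100a10 and S100a11 differed from the 6-week cells by no more than 0.10 in any derived group, and adult and 6-week alveolar macrophages had 0 of 7 called by limma, where 0.0163% of all genes were, with 1 (S100a9, from adult replicate 1) at an unadjusted p under 0.05, where 4.08% of all genes were.

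The rest of the S100 family was mostly silent on these arrays. Of 11 further genes measured, 4 were tested: S100a7a, S100a13, S100g and S100pbp, the last a binding partner and not a family member. S100a13, known for its part in the release of FGF1, averaged 9.65 to 10.03 in the derived groups and was higher by 0.74 in yolk sac-derived than in yolk sac macrophages (limma adjusted p = 0.000331). S100g, calbindin-D9k of the intestine, was lower by -0.86 in that comparison (limma adjusted p = 0.00344). S100pbp was lower by -0.79 there and by -0.52 in bone marrow-derived macrophages than in their monocytes, and S100a7a was called lower in the second of these comparisons, at 4.22 in bone marrow-derived macrophages and 4.67 in bone marrow monocytes, both close to low signal. In all, 1 was higher and 2 lower for the yolk sac origin, where 19.6% of all genes tested were called higher and 23.2% lower, and 0 higher and 2 lower for bone marrow, where 20.3% and 16.1% were. For fetal liver 0 of 4 were called, where 20.4% of all genes were called higher and 18% lower. At an unadjusted p under 0.05 there were 0 of 4, where 45.3% of all genes passed.

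Known and proposed receptors of S100A8 and S100A9 were followed as 8 genes. Cd36, the scavenger receptor for fatty acids and oxidised lipoprotein, had the largest difference of the 8 in both monocyte origins: it averaged 10.45 in bone marrow-derived macrophages and 4.37 in bone marrow monocytes, at least 56.8-fold higher (limma adjusted p = 3.62e-28), and 10.74 in fetal liver-derived macrophages and 3.38 in fetal liver monocytes, at least 69.6-fold higher (limma adjusted p = 1.69e-30), with the monocyte means set at the table median. In yolk sac-derived macrophages it was higher by 1.41 than in yolk sac macrophages (limma adjusted p = 3.11e-11). Tlr4, the receptor for bacterial lipopolysaccharide, was higher by 1.78 in bone marrow-derived and by 1.54 in fetal liver-derived macrophages than in their monocytes, and the difference of 0.25 for the yolk sac origin was not called (limma adjusted p = 0.0501). Mcam, an adhesion molecule of the immunoglobulin superfamily, was higher by 1.73, 1.59 and 1.64 in bone marrow-, fetal liver- and yolk sac-derived macrophages than in their precursors. Cd69, an early activation antigen of lymphocytes, averaged 6.16 in bone marrow-derived macrophages, at least 2.9-fold higher than in their monocytes, and was lower by -1.83 in yolk sac-derived than in yolk sac macrophages (limma adjusted p = 0.000139). In all, 5 of the 8 were higher and 0 lower for bone marrow, where 20.3% of all genes tested were called higher and 16.1% lower. For fetal liver 4 were higher and 0 lower, where 20.4% and 18% were, and for yolk sac 3 and 1, where 19.6% and 23.2% were. Alcam, an adhesion molecule related to Mcam, was higher by 0.53, 1.3 and 2.88 in bone marrow-, fetal liver- and yolk sac-derived macrophages than in their precursors. It was the 1 receptor called against 6-week alveolar macrophages, and it was higher in all 4 derived groups: by 1.41 in bone marrow-derived (limma adjusted p = 4.9e-05), 0.80 in fetal liver-derived (0.0451), 1.24 in yolk sac-derived (0.000185) and 0.92 in alveolar macrophage-derived cells (0.0134).

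Transcription factors of myeloid cells, several of them known to act on S100a8 or S100a9, were followed as 10 genes. Cebpe, a factor of late granulocyte maturation, averaged 4.66 in bone marrow-derived and 4.84 in fetal liver-derived macrophages, close to the table median, and was lower than in their monocytes by -1.88 (limma adjusted p = 2.28e-08) and -2.48 (limma adjusted p = 4.66e-11). Irf8, a factor of monocyte development, was lower in all 3 origins, by -1.63, -1.22 and -0.68 for bone marrow, fetal liver and yolk sac. Irf7, a factor of the interferon response, was lower by -2.44 for bone marrow and -1.45 for yolk sac, and Cebpd, a C/EBP factor of the acute phase response, by -1.17 for bone marrow. Cebpb, which is active in mature macrophages, was higher in all 3, by 0.94, 0.66 and 0.93. Cebpa, a factor of early myeloid commitment, was higher by 1.79 for fetal liver and 1.64 for yolk sac, and Hif1a, the oxygen-regulated subunit of HIF-1, by 0.77 for fetal liver. Klf4, a factor of monocyte differentiation, was higher by 1.58 in yolk sac-derived than in yolk sac macrophages (limma adjusted p = 1.71e-09). At most 5 genes per origin are named, so an origin not named for a gene can differ too. For fetal liver, Irf7 averaged 5.79 in derived cells against 6.63 in the monocytes, and Cebpd 7.38 against 8.24. For bone marrow, Cebpa averaged 8.51 against 7.62. In all, 4 of the 10 were higher and 4 lower for bone marrow, where 20.3% of all genes tested were called higher and 16.1% lower. For fetal liver 4 were higher and 4 lower, where 20.4% and 18% were, and for yolk sac 5 and 2, where 19.6% and 23.2% were.

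The genes whose group means ran most nearly in parallel with each S100 gene were picked by Pearson's r over the 9 groups among 4191 genes. These r values describe 9 points that include shared precursors and are given with no test. For S100a9 they were Chil1 (r = 0.999), Ctsg (0.998) and Ltb4r1 (0.998), and for S100a8 Megf9 (0.990), Pstpip2 (0.983) and Dclre1b (0.977). For S100a11 they were Mcemp1 (0.999), Msrb1 (0.998) and Serpinb1a (0.997), for S100a10 Slpi, Pqlc3 and Clec7a (0.997 each), and for S100a1 Cd200r2 (0.997), Tnfrsf23 (0.996) and Lipf (0.995). S100a4 and S100a6 shared Mrs2 (0.949 and 0.950), beside Tmem71 (0.958) and Ttc7 (0.957) for S100a4 and Nt5c (0.933) and Parp8 (0.931) for S100a6. Among the 7 themselves, S100a10 and S100a11 were the most alike (r = 0.991), then S100a4 and S100a6 (0.964), while the neighbours S100a8 and S100a9 had r = 0.597.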

How the data were processed

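RNA of sorted cells was amplified and measured on Affymetrix Mouse Gene 1.0 ST arrays, per the series' design text. The deposited table holds log2 values of 35556 probe sets in 36 arrays, normalised with RMA per the submitters' processing notes, which forces all arrays to a common distribution; which version was run is not given in the sources used here. All tests used log2 values as the authors deposited them, and 0 columns belonged to no sample.

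Of the probe sets, 21789 had 1 gene symbol and were kept, 1621 had more than one and 12146 were unlisted. Of the symbols kept, 21698 were matched to RefSeq GRCm38.p6 names. The highest-mean probe set stood for each gene. Genes above the table median in at least 4 arrays were tested. limma 3.58.1 in R 4.3.3 (lmFit, eBayes) fitted 1 mean per group to all 36 arrays, and Benjamini-Hochberg adjustment of its p-values ran over 12244 genes within each contrast; calls were made at an adjusted p under 0.05. The fit was tested on simulated data. A fold replaces a mean under the table median by that median and is then a lower bound. The number of arrays limits the precision.

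The 7 genes and all lists were chosen with earlier results of these data known. The rule names all 7, up to 5 called genes per list and contrast by lowest adjusted p, and 3 parallel genes for each. Single genes of the neutrophil list were named after their values were seen. Same-numbered replicates did not pair the samples: correlations of their deviations from the group means ran from -0.233 to 0.419, and in no contrast was every pair over 0.1.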

Additional observations from a re-analysis of the deposited data

Results flagged for a closer look

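In 5 of 63 sets of 4 arrays (7 genes in 9 groups) 1 array lay far from the other 3, where chance gives about 1 in 20. These were S100a9 in bone marrow-derived replicate 3, at 3.336 and so at low signal, S100a9 in adult alveolar macrophage replicate 1, at 6.194, S100a4 in fetal liver monocyte replicate 1, at 9.601, S100a11 in alveolar macrophage-derived replicate 4, at 12.60, and S100a1 in yolk sac macrophage replicate 1, at 8.872.

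Of 21 tests that set the transfer change of one origin against that of another, 12 were called, each time with the more positive change in the yolk sac origin. Such a difference equals that between the derived groups minus that between the precursors, so it is not independent of the precursor levels. For S100a11, yolk sac minus bone marrow was -0.04 between the derived groups and -3.25 between the precursors. The difference of log2 changes, yolk sac minus bone marrow and then yolk sac minus fetal liver, was 9.40 and 9.05 for S100a8, 8.82 and 9.26 for S100a9, 4.42 and 3.82 for S100a4, 3.37 and 4.10 for S100a6, 1.57 and 1.51 for S100a10, and 3.21 and 3.21 for S100a11. For S100a9 this is the fall in the monocyte origins beside a change of 0.08 in the yolk sac origin, where both groups were at low signal.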

How the results depend on the processing

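No single-gene difference changed sign under any alternative where it had been called. The alternatives were no filter or a stricter one (5.284), the mean over probe sets, array medians subtracted, quantile normalisation repeated, a trended and robust prior, the replicate number as a block, only the 2 groups in the fit, and each array left out in turn. With the replicate block, 0 calls changed; bone marrow-derived against bone marrow monocytes kept 5 of 7 genes called. A fit of only the 2 groups called 2 genes between fetal liver and bone marrow monocytes, 0 between fetal liver-derived and 6-week alveolar macrophages, and 1 between yolk sac-derived and 6-week alveolar macrophages. Between alveolar macrophage-derived and 6-week cells it called 2 as before, but S100a8 and S100a1 in place of S100a4 and S100a6. With each array left out, the count of called genes ran from 5 to 6 for the fetal liver transfer and from 1 to 2 between the monocytes. Against 6-week alveolar macrophages it ran from 1 to 3 for bone marrow-derived, 0 to 2 for fetal liver-derived, 0 to 1 for yolk sac-derived and 0 to 2 for alveolar macrophage-derived cells. S100a10 in the bone marrow transfer was called with array medians subtracted (adjusted p 0.038), with repeated quantile normalisation (0.049) and with the trended prior (0.035). The causes of these changes were not tested. Values under the table median carry little information on level, and those near the top of the scale have little room to rise.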
